A study of Homo sapiens with 6 samples.

Results

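The genes described here are the Wnt ligands, their receptors and the core components of the pathway, as expressed in MDA-MB-231, an established cell line from a triple-negative breast cancer with a mesenchymal appearance. They were chosen by symbol, from families of ligands, secretion factors, secreted inhibitors, receptors, R-spondin genes, cytoplasmic proteins and nuclear factors, and 55 of the 31835 genes of the expression table were members. Some symbols that the rule covers had no entry among these genes, among them WNT2, WNT6, WNT7A, ROR2, RNF43, NKD2, SFRP1 and RSPO1. The rule uses no measured value, but it was drawn up with earlier results of these data known. RNA sequencing gave 6 libraries, 3 from MDA-MB-231 cells overexpressing ADAMTS1 and 3 from MDA-MB-231 cells carrying the vector. ADAMTS1 is a secreted metalloprotease of the extracellular matrix, and the series is titled for a role of its nuclear zymogen in drug resistance and metastasis. Which form of ADAMTS1 was expressed, when the cells were harvested and whether they were clones were not given in the sources used here. Nothing states that the 3 samples of each kind were grown as separate cultures, so the p-values below measure the spread between these libraries, which may be technical.

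Wnt proteins are secreted lipid-modified ligands that bind Frizzled receptors together with the co-receptors LRP5 and LRP6. Without a ligand, a complex of APC, axin and the GSK3 kinases marks beta-catenin for degradation. When the receptors are engaged, Dishevelled recruits axin to the membrane, and beta-catenin accumulates and acts in the nucleus with the TCF and LEF factors. Other ligands, WNT5A being the best known, act through ROR receptors and planar polarity proteins without beta-catenin, a branch best known in mesenchymal and migrating cells.

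ADAMTS1 itself was at 499, 462 and 501 FPKM in the ADAMTS1 libraries, against 6.56, 6.72 and 6.99 FPKM in the vector libraries, so each library matched its label. FPKM is fragments per length of transcript and per total of mapped fragments, so levels of different genes can be set beside each other. The absolute number of reads is unknown; relative to vector replicate 1, depth was 1.04 to 1.43 in the ADAMTS1 libraries and up to 1.26 in the vector libraries. The 6 markers of the mesenchymal line (VIM, CD44, CAV1, AXL, FN1 and MSN) summed to 938 to 960.03 FPKM in the ADAMTS1 libraries and 922 to 959 FPKM in the vector libraries. Luminal markers summed to 169.7 to 179.5 FPKM in the ADAMTS1 libraries and 174.7 to 190.5 FPKM in the vector libraries, nearly all from keratins; ESR1 was at 0.0332 and 0.0192 FPKM. The fibroblast markers (6 matched) summed to 1.08 to 1.45 FPKM in the ADAMTS1 libraries and 1.45 to 1.57 FPKM in the vector libraries, most of it COL1A1, and DCN and PDGFRA were listed at 0 in the ADAMTS1 libraries. Haematopoietic markers (4 matched) summed to 0.0423 to 0.148 FPKM in the ADAMTS1 libraries and 0.0290 to 0.283 FPKM in the vector libraries, and 5 endothelial markers to 0.589 to 0.778 FPKM and 0.516 to 0.905 FPKM. The part of such cells in the results below was not tested. In RNA from whole cultures, fewer expressing cells and less RNA per cell cannot be told apart.

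The Wnt pathway genes expressed in these cells differed little between the groups. Of the 55 members, 28 had a mean of at least 1 FPKM over the 6 libraries and were tested by limma on log2(FPKM + 1), with Benjamini-Hochberg adjustment over all 11897 genes tested. None of the 28 passed an adjusted p of 0.05, against 0.0672% of all tested genes (8 genes); the lowest limma adjusted p of a member was 0.195, for ROR1. An unadjusted p under 0.05 was reached by 2 members that were higher in the ADAMTS1 libraries, ROR1 and DKK1, against 5.42% of all tested genes, and by 2 that were lower, FZD7 and FZD6, against 6.78%. These 4 of 28 stand beside 12.2% of all tested genes in either direction. With libraries scaled to a common upper quartile the split was 3 higher (FZD4 being the third) and 0 lower. The median change of the members, ADAMTS1 minus vector, was −0.0064 on the log2 scale, beside −0.0078 for all tested genes. A change above 0 was seen in 14 members and a change below 0 in 14.

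**Figure D1:**
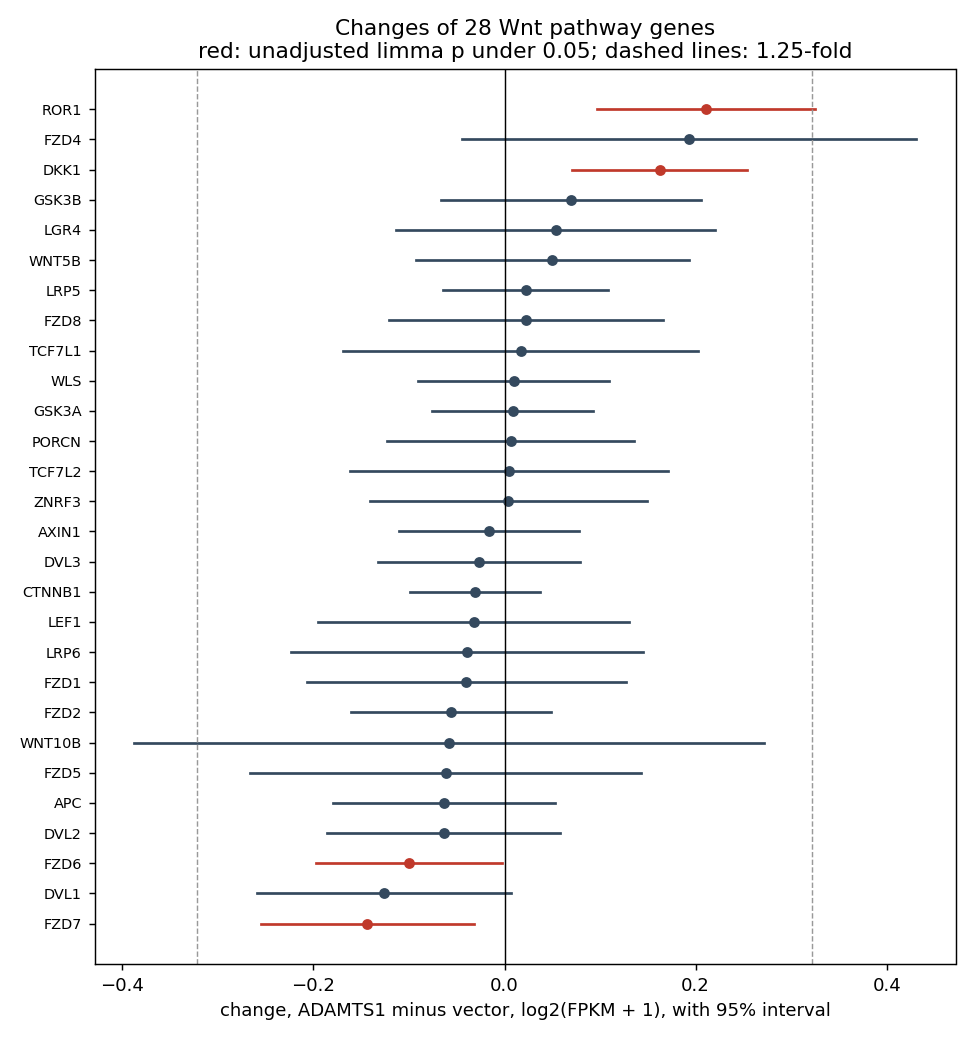
Change of each of the 28 tested Wnt pathway genes (x axis, log2(FPKM + 1) in the ADAMTS1 libraries minus that in the vector libraries), with its 95% limma interval as a line; red marks an unadjusted p under 0.05 and dashed lines mark 1.25-fold. ROR1 stands at the top at 0.21 and FZD7 at the bottom at −0.14, and the intervals of ROR1, FZD4 and WNT10B cross a dashed line.

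The 95% intervals show how large a difference these libraries leave room for. On the log2(FPKM + 1) scale, the interval of all 28 tested members lay inside 1.5-fold in either direction, as it did for 94.0% of all tested genes. For 25 of them it lay inside 1.25-fold, as for 79.8% of all tested genes; the other 3 were ROR1, FZD4 and WNT10B. The added 1 reduces the change of genes at low levels, and the wider limit does not hold for WNT10B and FZD4 with a smaller pseudocount. With a pseudocount of 0.1 and a filter of 0.5 FPKM, chosen after seeing the data, their intervals were −0.71 to 0.48 and −0.061 to 0.59, against 0.58 for 1.5-fold.

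ROR1 and DKK1, the 2 tested members that were higher in every ADAMTS1 library than in any vector library, are shown with the 250 bases before their transcription start (RefSeq, GRCh38.p14). The ROR1 window is chr1:63773767-63774016 and the DKK1 window chr10:52314031-52314280, both on the plus strand, and each ends at the base before the gene start given in the deposited table. Capitals mark matches, on either strand, to 4 short motifs: the TCF and LEF core written as CTTTGAT or CTTTGTT, the TATA box TATAAA and the GC box GGGCGG. Other forms of the TCF and LEF core were not searched, and the DKK1 window also holds a CTTTGAA, left in lower case.
ROR1: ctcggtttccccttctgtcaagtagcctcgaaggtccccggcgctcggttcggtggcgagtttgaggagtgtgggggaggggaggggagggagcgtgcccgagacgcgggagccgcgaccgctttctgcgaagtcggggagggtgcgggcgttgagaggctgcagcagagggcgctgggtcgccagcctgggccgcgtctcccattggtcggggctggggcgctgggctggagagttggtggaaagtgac
DKK1: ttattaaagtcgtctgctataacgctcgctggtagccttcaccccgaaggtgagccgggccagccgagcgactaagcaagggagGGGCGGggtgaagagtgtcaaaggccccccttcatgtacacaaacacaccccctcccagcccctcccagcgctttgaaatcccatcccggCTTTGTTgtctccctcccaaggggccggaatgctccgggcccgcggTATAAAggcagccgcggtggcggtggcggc
The DKK1 window held a CTTTGTT that starts 76 bases before the transcription start, a TATAAA that starts 30 bases before it and a GGGCGG that starts 166 bases before it, with no overlap among them. Of 35116 RefSeq promoter windows of this length, 4.50% held CTTTGTT, 10.7% held TATAAA and 42.6% held GGGCGG. The ROR1 window held none of the 4 motifs. It was 69.2% G and C, against 62.8% for DKK1 and a median of 58% over all windows. The upper quartile over all windows was 68%, and the median over the windows of members was 65.2%. Windows were matched for 38 of the 55 members. CTTTGTT was in those of DKK1, TCF7 and TCF7L2, CTTTGAT in none (2.26% of all windows), and TATAAA in those of DKK1, FZD8, TCF7 and WNT5B. GGGCGG was common among members, in 32 of their 49 windows. A match is a run of letters and not a shown binding site.

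DKK1 was the most abundant member in both groups. It encodes the secreted Dickkopf inhibitor that binds LRP5 and LRP6, and it is itself a known target of beta-catenin. DKK1 (ENSG00000107984, chromosome 10, 52314281 to 52318042, plus strand, hg38) was at 103, 108 and 107 FPKM in the ADAMTS1 libraries, against 89.7, 97.9 and 96.4 FPKM in the vector libraries. All 3 ADAMTS1 libraries lay above all 3 vector libraries. The mean was 106 ± 2.902 FPKM in the ADAMTS1 libraries and 94.7 ± 4.36 FPKM in the vector libraries (SD, n = 3 each), a ratio of 1.12. The change was 0.16 ± 0.039 (standard error) on the log2 scale, with an unadjusted limma p of 0.00388 and a limma adjusted p of 0.211, so it did not pass.

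ROR1 encodes a receptor with a kinase-like domain that binds WNT5A. ROR1 (ENSG00000185483, chromosome 1, 63774017 to 64181498, plus strand) was at 9.29, 8.42 and 8.72 FPKM in the ADAMTS1 libraries, against 7.83, 7.26 and 7.34 FPKM in the vector libraries. The groups did not overlap. The mean was 8.81 ± 0.444 FPKM in the ADAMTS1 libraries and 7.48 ± 0.305 FPKM in the vector libraries (SD, n = 3 each), a ratio of 1.18. The change was 0.21 ± 0.049, the largest in size of the 28 tested members, and the limma adjusted p was 0.195 (unadjusted 0.00321). Both ROR1 and DKK1 had an unadjusted p under 0.05 in all 16 alternative settings, where the limma adjusted p ranged over 0.133 to 0.389 for ROR1 and 0.128 to 0.456 for DKK1. Their groups were also apart under each of 3 other scalings of the libraries.

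**Figure D2:**
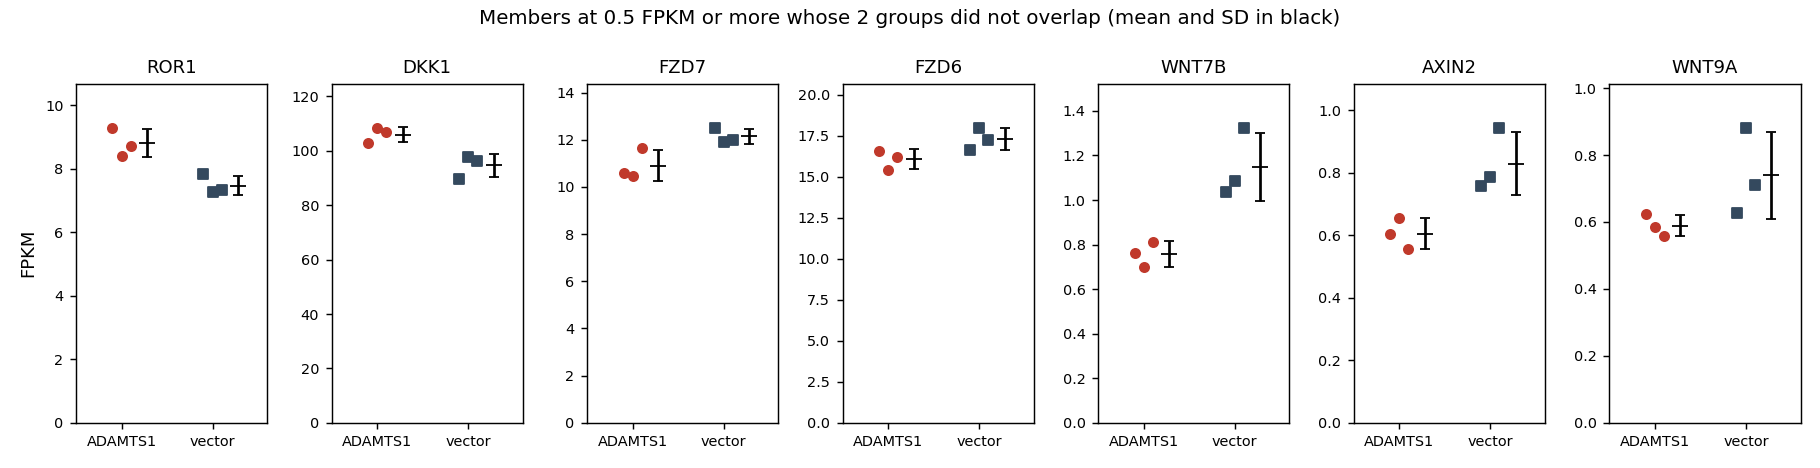
FPKM in each library (points, y axis from 0) for the 7 members at a mean of at least 0.5 FPKM whose groups did not overlap, with the mean and SD of each group of 3 in black beside the points. ROR1 and DKK1 were higher in the ADAMTS1 libraries, FZD7, FZD6, WNT7B, AXIN2 and WNT9A lower. The groups of FZD6 and WNT9A nearly touch, and those of FZD6, FZD7 and WNT9A overlap with libraries scaled to a common upper quartile. Those of FZD6 also overlap with the median of ratios.

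Among the Frizzled receptors, the membrane proteins that bind Wnt ligands, FZD7 and FZD6 were lower in the ADAMTS1 libraries. FZD7 (ENSG00000155760, chromosome 2, 202033855 to 202038441, plus strand) was at 10.6, 10.5 and 11.7 FPKM in the ADAMTS1 libraries, against 12.5, 11.9 and 11.99 FPKM in the vector libraries. ADAMTS1 replicate 3 lay closest to the vector libraries, and the groups did not overlap. The change of FZD7 was −0.14 ± 0.047 (limma adjusted p = 0.324, unadjusted 0.0188). FZD6 (ENSG00000164930, chromosome 8, 103298433 to 103332866, plus strand) was at 16.6, 15.4 and 16.2 FPKM in the ADAMTS1 libraries, against 16.7, 17.99 and 17.3 FPKM in the vector libraries. The highest ADAMTS1 library and the lowest vector library nearly touched. The change of FZD6 was −0.10 ± 0.041 (limma adjusted p = 0.401, unadjusted 0.0462). FZD6 overlaps the gene ENSG00000286337 on the opposite strand, which was at 0.594 FPKM in the ADAMTS1 libraries and 1.41 FPKM in the vector libraries. The part of shared reads in FZD6 was not tested. An unadjusted p under 0.05 was reached in 12 of 16 alternative settings by FZD7 and in 8 of 16 by FZD6, where the limma adjusted p ranged over 0.241 to 0.571 and 0.326 to 0.870. With a library left out it was missed by FZD7 without vector replicate 1 and without ADAMTS1 replicate 1 or 2, and by FZD6 without vector replicate 2 or 3 and without ADAMTS1 replicate 2 or 3. In the deposited FPKM, groups that did not overlap were thus seen in 2 tested members higher in the ADAMTS1 libraries, against 8.15% of all tested genes, and in 2 lower, against 10.6%. This split depends on scaling. With a common upper quartile, LRP5, GSK3A, GSK3B and AXIN1 were also apart and higher, while FZD7 and FZD6 overlapped. The share of all genes was not computed for that scaling, under which the median change of all tested genes was 0.0605.

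The receptors had the same order of mean level in both groups. FZD2 was the most abundant, at 28.6, 29 and 28.4 FPKM in the ADAMTS1 libraries, against 32.05, 28.9 and 28.7 FPKM in the vector libraries. The groups overlapped, and vector replicate 1 stood above the other 5 libraries. LRP5, the co-receptor, was at 17.6, 18.2 and 19.1 FPKM in the ADAMTS1 libraries, against 18.1, 18.1 and 17.7 FPKM in the vector libraries. Its change was 0.022 ± 0.037, with a 95% interval of −0.064 to 0.11. With a common upper quartile the groups of LRP5 were apart, at 18.8 ± 0.814 and 17.5 ± 0.391 (ADAMTS1 and vector). They overlapped with the median of ratios and with a common sum. LRP6, the closely related co-receptor, averaged 6.26 ± 0.757 FPKM in the ADAMTS1 libraries and 6.44 ± 0.293 FPKM in the vector libraries. FZD1 averaged 4.703 ± 0.284 and 4.87 ± 0.481 FPKM, FZD8 4.33 ± 0.1802 and 4.25 ± 0.325 FPKM, and FZD5 1.84 ± 0.01999 and 1.98 ± 0.287 FPKM (ADAMTS1 and vector, SD, n = 3 each). The groups of these 4 genes overlapped. FZD4, which also serves as the receptor of norrin, was at 2.599, 2.47 and 2.85 FPKM in the ADAMTS1 libraries, against 2.29, 2.54 and 1.77 FPKM in the vector libraries. Its change of 0.19 ± 0.101 had the second widest interval of the members (limma adjusted p = 0.498). The change was 0.093 without vector replicate 3, the lowest library, and 0.27 without vector replicate 2. FZD4 overlaps PRSS23 on the opposite strand, which was at 29.96 FPKM in the ADAMTS1 libraries and 29.5 FPKM in the vector libraries. The sources used here do not give the strand setting of the counting, so reads from stretches that the 2 genes share cannot be told apart. Overlaps here are of whole gene spans, and shared exons were not examined.

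By mean over the 6 libraries, the order of receptors was FZD2, LRP5, FZD6, FZD7, ROR1, LRP6, FZD1, FZD8, FZD4 and FZD5. The library values of LRP5 and FZD6 overlapped, as did those of FZD1 and FZD8 and those of FZD4 and FZD5, while all other neighbours in that order were apart. The Frizzled genes summed to 69.7, 68.6 and 70.6 FPKM in the ADAMTS1 libraries, against 76.2, 72.5 and 70.8 FPKM in the vector libraries. With a common upper quartile this sum averaged 71.6 ± 3.003 in the ADAMTS1 libraries and 71.2 ± 0.518 in the vector libraries, which turns the direction. The make-up of the sum was alike, with FZD2 at 41.2 ± 1.02% in the ADAMTS1 libraries and 40.8 ± 1.11% in the vector libraries. FZD6 made up 23.1 ± 0.677% and 23.7 ± 1.59%, and FZD7 15.7 ± 0.759% and 16.6 ± 0.293% (ADAMTS1 and vector). FZD3 was at 0.498, 0.384 and 0.379 FPKM in the ADAMTS1 libraries, against 0.533, 0.562 and 0.43 FPKM in the vector libraries, with overlapping groups. FZD9 was listed at 0.01901, 0.0257 and 0 FPKM in the ADAMTS1 libraries and at 0 in the vector libraries, and FZD10 was above 0 in 1 ADAMTS1 library.

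**Figure D3:**
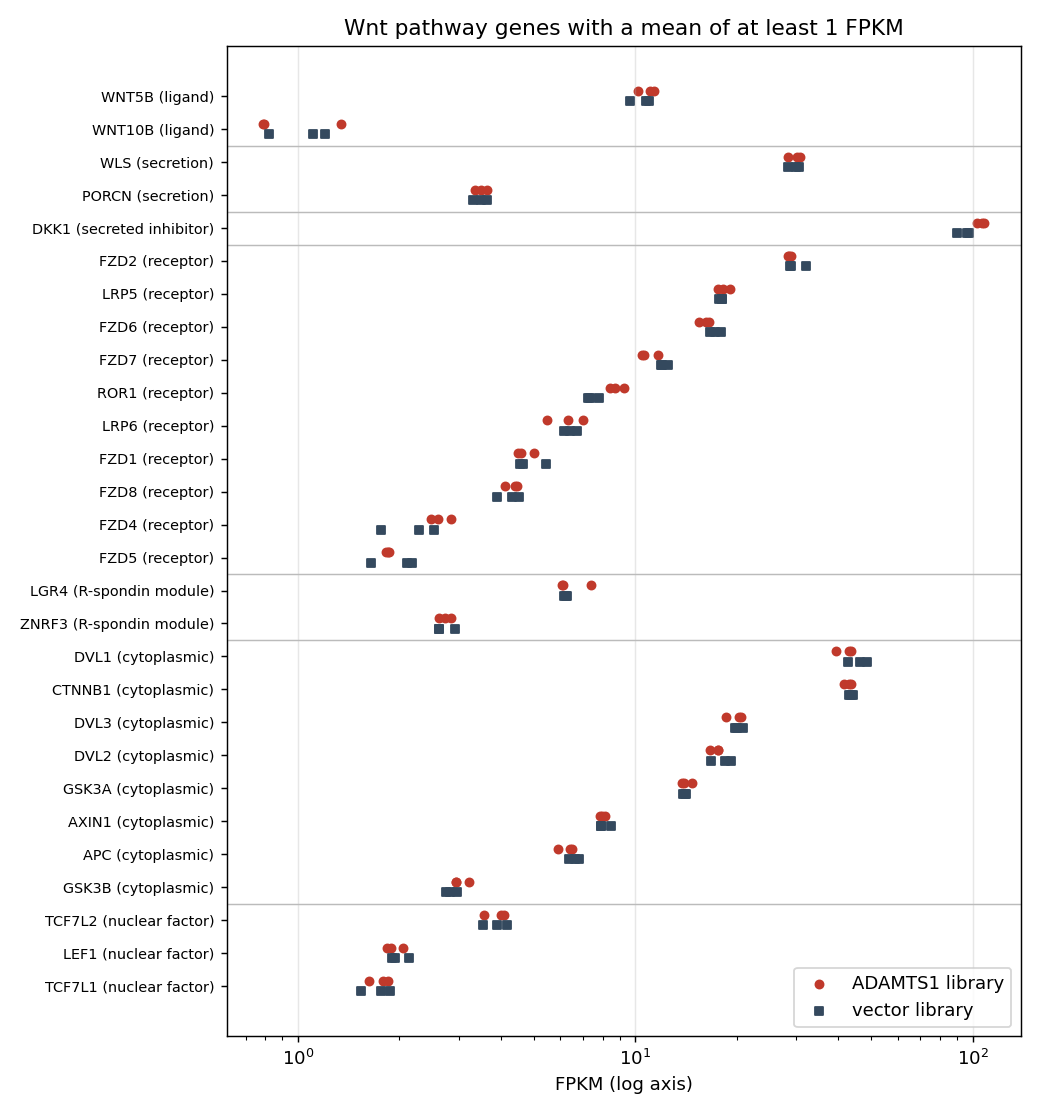
FPKM of the 28 tested members in each of 6 libraries (log x axis), grouped by role and ordered by mean within a role; red circles are ADAMTS1 libraries and dark squares vector libraries. DKK1 lies furthest right at 89.7 to 108 FPKM, WNT5B stands apart from WNT10B, and the nuclear factors lie at 4.18 FPKM or less.

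A single ligand gene, WNT5B, accounted for most Wnt ligand RNA. WNT5B, a ligand that acts largely without beta-catenin, was at 11.4, 11.1 and 10.2 FPKM in the ADAMTS1 libraries, against 10.8, 9.62 and 10.997 FPKM in the vector libraries. The groups overlapped, and its change was 0.050 ± 0.061 (limma adjusted p = 0.793). The gene overlaps FBXL14 on the opposite strand, which was at 7.53 FPKM in the ADAMTS1 libraries and 8.15 FPKM in the vector libraries. Reads from any stretch that the 2 genes share cannot be told apart. WNT10B, a ligand of the beta-catenin branch, was the only other ligand with a mean of at least 1 FPKM, at 0.788, 1.34 and 0.794 FPKM in the ADAMTS1 libraries, against 0.8203, 1.11 and 1.21 FPKM in the vector libraries. Its values were spread widely in both groups, and its change of −0.058 had the widest interval of the members, −0.39 to 0.27.

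WNT7B, WNT3, WNT9A and WNT5A lay just under the filter, at a mean of 0.5 to 1 FPKM. WNT7B, a ligand of the beta-catenin branch in epithelia and vessels, was at 0.763, 0.698 and 0.813 FPKM in the ADAMTS1 libraries, against 1.04, 1.08 and 1.32 FPKM in the vector libraries. The groups did not overlap, nor under any of 3 other scalings, and the ratio of means was 0.6599. With no filter on low values its change was −0.29 ± 0.098 (limma adjusted p = 0.612, unadjusted 0.0268). With the filter of 0.5 FPKM and pseudocount of 0.1 it was −0.54 (limma adjusted p = 0.32999, unadjusted 0.0145). WNT9A was at 0.623, 0.585 and 0.559 FPKM in the ADAMTS1 libraries, against 0.627, 0.881 and 0.709 FPKM in the vector libraries. Vector replicate 1 lay just above the ADAMTS1 libraries, and the change with no filter was −0.13 ± 0.098 (limma adjusted p = 0.784). WNT3 averaged 0.823 ± 0.129 FPKM in the ADAMTS1 libraries and 0.947 ± 0.0572 FPKM in the vector libraries, and WNT5A 0.6102 ± 0.124 and 0.673 ± 0.1796 FPKM, each with overlapping groups. WNT5A overlaps the antisense gene WNT5A-AS1, which was at 0.308 FPKM in the ADAMTS1 libraries and 1.04 FPKM in the vector libraries. With AXIN2, described below, 3 of the 5 members at 0.5 to 1 FPKM were lower with groups apart. This stands beside 6.97% of all 2123 genes in that range, and 0 were higher, against 6.12%. The groups of WNT9A overlapped with a common upper quartile. The bound of 0.5 FPKM is that of the filter chosen after seeing the data, and 5 genes are few. Of the 5 members at 0.1 to 0.5 FPKM (FZD3, TCF7, SFRP5, WNT2B and DKK3), only WNT2B had groups apart, and it was higher in the ADAMTS1 libraries.

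The other 8 ligands were at 0.202 FPKM or less in every library. WNT2B was at 0.191, 0.194 and 0.202 FPKM in the ADAMTS1 libraries, against 0.177, 0.1599 and 0.129 FPKM in the vector libraries. WNT4 was at 0.0479, 0.0388 and 0.00945 FPKM in the ADAMTS1 libraries, against 0.0675, 0.0575 and 0.07499 FPKM in the vector libraries. The groups of both were apart, in opposite directions, and neither passed with no filter (limma adjusted p = 0.784 for WNT2B and 0.748 for WNT4). The share of all genes with groups apart was not computed at such low levels. WNT8B, WNT10A, WNT16 and WNT11 reached at most 0.146 FPKM in any library, and WNT3A and WNT1 were each above 0 in 1 library.

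Over the 14 ligand genes that had an entry the summed level was 15.4, 15.2 and 14.4 FPKM in the ADAMTS1 libraries, against 15.5, 14.6 and 16.3 FPKM in the vector libraries. The groups overlapped. Of this sum, WNT5B made up 73.6%, 72.7% and 70.4% in the ADAMTS1 libraries, against 69.5%, 65.9% and 67.7% in the vector libraries. This share averaged 72.2 ± 1.65% in the ADAMTS1 libraries and 67.7 ± 1.82% in the vector libraries, with groups apart. WNT7B made up 5.05 ± 0.533% in the ADAMTS1 libraries and 7.42 ± 0.7299% in the vector libraries, also apart and in the other direction. Such shares do not depend on how the libraries are scaled, since both parts of the ratio come from the same library. They are tied to each other, however, so a lower share of WNT7B raises that of WNT5B, whose own level overlapped between the groups. The 2 shares are therefore not separate observations, and how often shares of other families were apart was not computed.

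**Figure D4:**
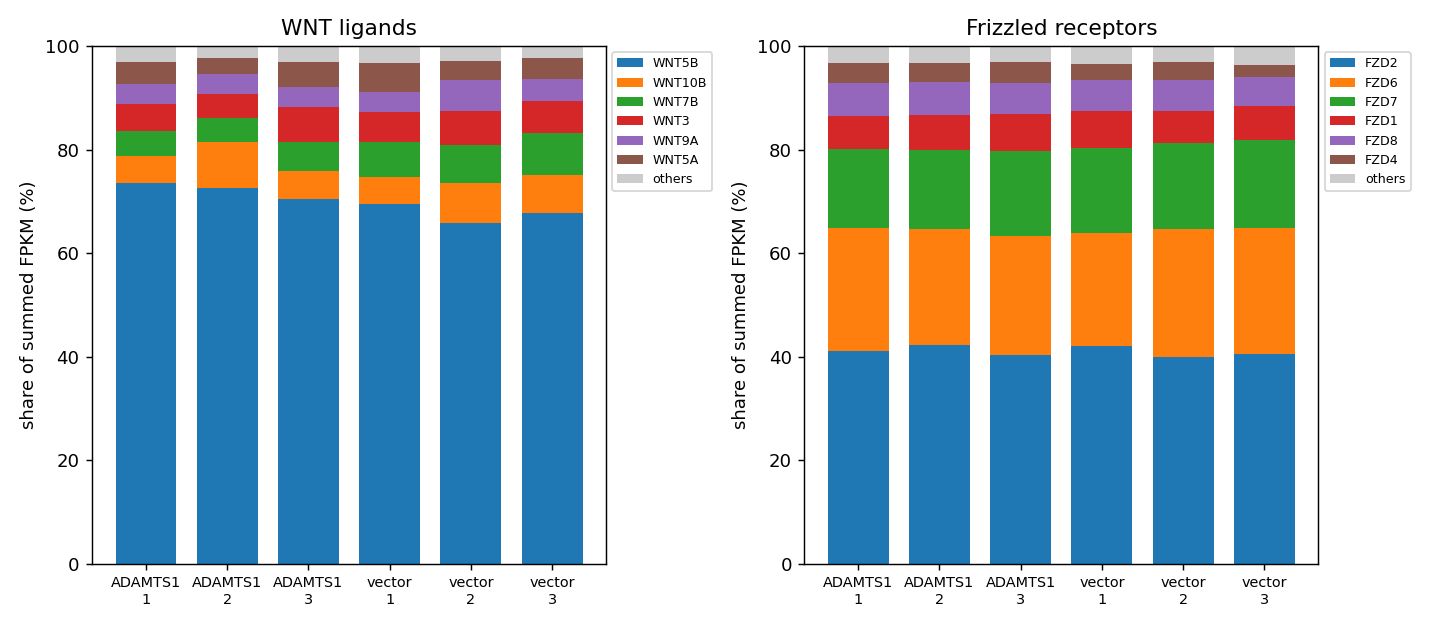
Share of each gene in the summed FPKM of the 14 WNT ligand genes (left) and of the 10 Frizzled genes (right) in each library (y axis, percent), ADAMTS1 libraries left of vector libraries. WNT5B fills 70.4% to 73.6% of the bar in the ADAMTS1 libraries and 65.9% to 69.5% in the vector libraries, and FZD2 is the largest Frizzled share in both groups.

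Ligand secretion needs PORCN, the acyltransferase that attaches the lipid in the endoplasmic reticulum, and WLS, the carrier that takes the lipidated ligand to the surface. WLS was at 30.3, 30.8 and 28.4 FPKM in the ADAMTS1 libraries, against 30.6, 30.02 and 28.3 FPKM in the vector libraries. PORCN was at 3.36, 3.63 and 3.49 FPKM in the ADAMTS1 libraries, against 3.49, 3.303 and 3.64 FPKM in the vector libraries. The values of the groups interleaved for both genes, and the 95% intervals of the changes were −0.091 to 0.11 for WLS and −0.12 to 0.14 for PORCN.

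DKK1 was the only secreted inhibitor with a mean of at least 1 FPKM. SFRP5, a secreted Frizzled-related protein that binds Wnt ligands, was at 0.402, 0.0638 and 0.0467 FPKM in the ADAMTS1 libraries, against 0.467, 0.312 and 0.212 FPKM in the vector libraries. ADAMTS1 replicate 1 lay among the vector libraries, and the change with no filter did not pass (limma adjusted p = 0.784). DKK3, a divergent Dickkopf protein, averaged 0.168 ± 0.0426 FPKM in the ADAMTS1 libraries and 0.146 ± 0.0399 FPKM in the vector libraries. SFRP2, SFRP4, DKK2 and DKK4 were each above 0 in a single library.

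R-spondins strengthen Wnt signals by binding LGR receptors and drawing the ubiquitin ligase ZNRF3 away from the Frizzled receptors it removes. LGR4 was at 7.401, 6.11 and 6.07 FPKM in the ADAMTS1 libraries, against 6.25, 6.29 and 6.15 FPKM in the vector libraries. ADAMTS1 replicate 1 stood above the other 5 libraries; without it the change of LGR4 was −0.028, against 0.054 with all libraries. ZNRF3 was at 2.84, 2.74 and 2.63 FPKM in the ADAMTS1 libraries, against 2.93, 2.62 and 2.62 FPKM in the vector libraries, with overlapping groups and a change of 0.0038. LGR4 made up 99.4 ± 0.251% in the ADAMTS1 libraries and 99.2 ± 0.705% in the vector libraries of the summed LGR level. The intestinal stem cell receptor LGR5 was at most 0.0721 FPKM in any library, LGR6 was listed at 0 in the 3 ADAMTS1 libraries, and RSPO2 was above 0 in 1 library.

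In the cytoplasm, DVL1, one of the Dishevelled adaptors, and CTNNB1, which encodes beta-catenin, had the highest levels. DVL1 was at 43.02, 39.5 and 43.6 FPKM in the ADAMTS1 libraries, against 48.8, 42.8 and 46.4 FPKM in the vector libraries. Vector replicate 2 lay among the ADAMTS1 libraries, and the change was −0.13 ± 0.057 (limma adjusted p = 0.432). DVL2 averaged 17.3 ± 0.543 FPKM in the ADAMTS1 libraries and 18.1 ± 1.23 FPKM in the vector libraries, and DVL3 19.9 ± 1.12 and 20.2 ± 0.517 FPKM. CTNNB1 was at 41.5, 43.02 and 43.6 FPKM in the ADAMTS1 libraries, against 44.4, 42.97 and 43.6 FPKM in the vector libraries. The groups overlapped, and the change of −0.031 ± 0.029 had the narrowest interval of all members, −0.10 to 0.037.

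The proteins that mark beta-catenin for degradation were expressed at unequal levels. GSK3A averaged 14.1 ± 0.517 FPKM in the ADAMTS1 libraries and 14.04 ± 0.162 FPKM in the vector libraries, and GSK3B, the kinase most studied in this pathway, 3.04 ± 0.157 and 2.85 ± 0.108 FPKM. GSK3A made up 82.3 ± 1.03% and 83.1 ± 0.554% of their sum (ADAMTS1 and vector). The scaffold gene AXIN1 averaged 7.99 ± 0.129 FPKM in the ADAMTS1 libraries and 8.097 ± 0.306 FPKM in the vector libraries, and the tumour suppressor gene APC 6.27 ± 0.3303 and 6.59 ± 0.225 FPKM. None of these 4 genes passed, with limma adjusted p of 0.655 to 0.945. With a common upper quartile the groups of GSK3A, GSK3B and AXIN1 were apart, each higher in the ADAMTS1 libraries. They overlapped with the median of ratios and with a common sum. By level the cytoplasmic members ran DVL1, CTNNB1, DVL3, DVL2, GSK3A, AXIN1, APC and GSK3B; DVL1 and CTNNB1 overlapped, as did DVL3 and DVL2, and the other neighbours were apart.

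AXIN2, the axin whose transcription is a standard readout of beta-catenin activity, lay under the filter. AXIN2 (ENSG00000168646, chromosome 17, 65528563 to 65561648, minus strand) was at 0.605, 0.656 and 0.555 FPKM in the ADAMTS1 libraries, against 0.756, 0.788 and 0.944 FPKM in the vector libraries. All 3 ADAMTS1 libraries were lower than all 3 vector libraries, under each of the 3 other scalings as well. The mean was 0.605 ± 0.0505 FPKM in the ADAMTS1 libraries and 0.829 ± 0.1003 FPKM in the vector libraries (SD, n = 3 each), a ratio of 0.7298. With no filter on low values the change was −0.19 ± 0.094 (limma adjusted p = 0.747, unadjusted 0.0945). With a filter of 0.5 FPKM and a pseudocount of 0.1, chosen after seeing the data, it was −0.40 (limma adjusted p = 0.507). AXIN2 made up 7.14%, 7.46% and 6.504% in the ADAMTS1 libraries, against 8.21%, 9.03% and 10.7% in the vector libraries, as a share of the summed axin level. NKD1, a feedback inhibitor that binds Dishevelled, was above 0 in 1 library only.

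Of the nuclear factors, TCF7L2 was at 4.01, 3.56 and 4.07 FPKM in the ADAMTS1 libraries, against 3.53, 4.18 and 3.896 FPKM in the vector libraries. LEF1 was at 1.89, 2.05 and 1.84 FPKM in the ADAMTS1 libraries, against 1.91, 1.94 and 2.14 FPKM in the vector libraries. The values of the groups interleaved for both. TCF7L1, which mostly represses, averaged 1.75 ± 0.114 and 1.72 ± 0.168 FPKM, and TCF7 0.364 ± 0.0398 and 0.373 ± 0.0369 FPKM (ADAMTS1 and vector). The groups of all 4 overlapped, and TCF7L2 made up 48.9 ± 1.65% in the ADAMTS1 libraries and 48.5 ± 2.402% in the vector libraries of their sum. The limma adjusted p of the 3 tested factors was 0.885 to 0.986.

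Other genes of the pathway were described with 6 lists taken from textbook knowledge. By limma, none of their tested genes passed an adjusted p of 0.05, so the counts below are of unadjusted p under 0.05 and stand beside 5.42% (higher) and 6.78% (lower) of all tested genes. Among 46 described targets of beta-catenin and TCF, 7 of them pathway members above, 24 were tested; 6 were higher and 1 was lower, and the median change was 0.023. The smallest p values belonged to SNAI2, which drives epithelial-mesenchymal transition, with a change of 0.33 ± 0.045, and VEGFA, the angiogenic growth factor, with −0.42 ± 0.058 (limma adjusted p = 0.0922 for each). With a filter of 5 FPKM both passed (limma adjusted p = 0.0349 for SNAI2 and 0.0345 for VEGFA). SOX9, a transcription factor of progenitor cells, was at 22.3, 22.2 and 21.3 FPKM in the ADAMTS1 libraries, against 19.5, 19.6 and 20.7 FPKM in the vector libraries. The groups of SOX9 were apart, and its limma adjusted p was 0.244. EDN1, which encodes an endothelin, averaged 14.6 ± 1.39 and 12.4 ± 0.866 FPKM, BIRC5, which encodes survivin, 45.99 ± 0.551 and 43.8 ± 0.5196 FPKM, and L1CAM, a cell adhesion molecule, 7.02 ± 0.435 and 6.09 ± 0.638 FPKM (ADAMTS1 and vector). The groups overlapped for EDN1 and L1CAM and were apart for BIRC5. DKK1 was the sixth of those higher. The most abundant targets were FOSL1, an AP-1 factor, at 305 ± 1.76 and 315 ± 10.1 FPKM, and CCND1, cyclin D1, at 129.8 ± 0.498 and 132 ± 0.383 FPKM. Both had groups apart and lower in the ADAMTS1 libraries. Of the 24 tested targets, groups were apart and higher in 5, against 8.15% of all tested genes, and apart and lower in 3, against 10.6%. Of 11 targets that averaged under 0.1 FPKM over the 6 libraries, NOTUM, LGR5, NKD1 and ASCL2 reached at most 0.128 FPKM in a library, for NOTUM. Among the 11, only FGF18 had groups apart, and the share of all genes at that level was not computed. It was at 0.111, 0.12 and 0.198 FPKM in the ADAMTS1 libraries, against 0.0628, 0.0268 and 0.0249 FPKM in the vector libraries.

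**Figure D5:**
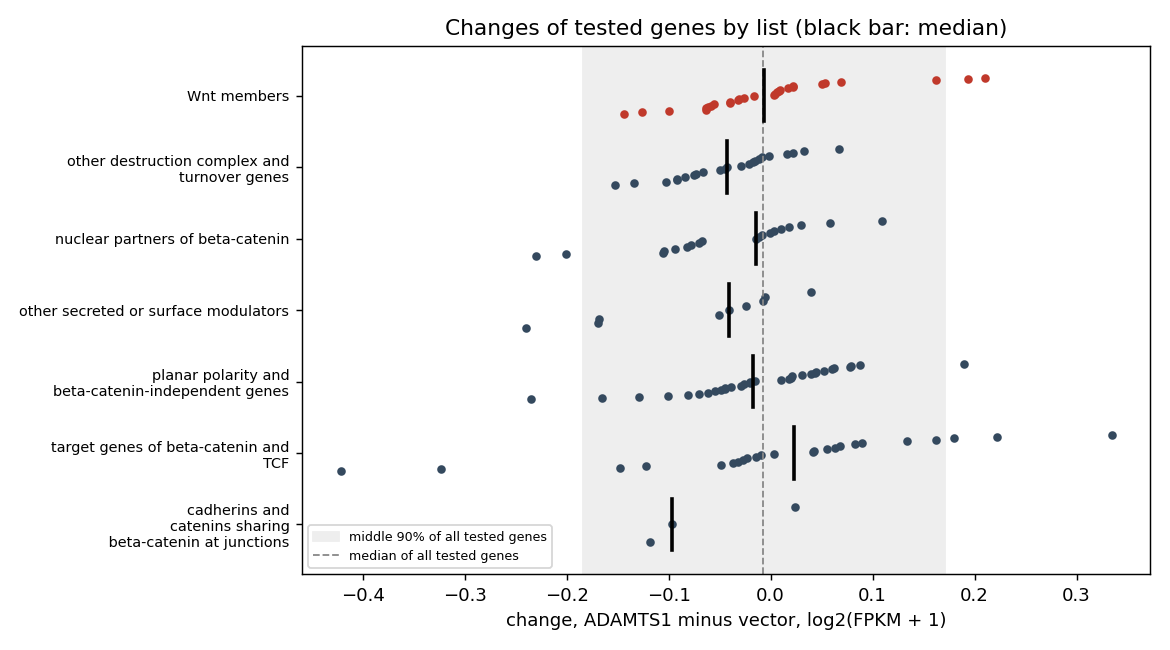
Changes (x axis, log2(FPKM + 1) in the ADAMTS1 libraries minus that in the vector libraries) of the tested Wnt pathway members (red) and of the tested genes of 6 other pathway lists (dark); each point is a gene, a black bar is the median of its list, and grey covers the middle 90% of all tested genes. The medians lie between −0.10 for the 3 cadherin and catenin genes and 0.023 for the targets.

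Among partners of beta-catenin in the nucleus, 19 of 23 listed genes were tested, of which 0 were higher and 4 were lower, with a median change of −0.014. BCL9, the adaptor between beta-catenin and Pygopus, was at 5.797, 5.59 and 5.91 FPKM in the ADAMTS1 libraries, against 7.22, 6.84 and 6.76 FPKM in the vector libraries. The groups were apart, and the change was −0.23 ± 0.043 (limma adjusted p = 0.155). PYGO2, a Pygopus protein, averaged 19.7 ± 0.5304 and 21.3 ± 0.831 FPKM, and CTNNBIP1, an inhibitor that keeps beta-catenin from TCF, 6.36 ± 0.433 and 7.46 ± 0.563 FPKM (ADAMTS1 and vector). CTBP1, a corepressor, averaged 19.4 ± 0.0354 FPKM in the ADAMTS1 libraries and 20.5 ± 0.182 FPKM in the vector libraries. The groups of these 3 were also apart, with limma adjusted p of 0.319 to 0.342. The corepressor genes HDAC1, at 34.9 ± 0.299 and 35.2 ± 0.787 FPKM, and TLE5, at 28.3 ± 0.968 and 28.4 ± 1.196 FPKM, were the most abundant of the list.

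The list of other destruction complex and turnover genes had 23 tested of 28, with 0 higher and 0 lower at an unadjusted p under 0.05. Its median change was −0.043, and 19 of the 23 changes were below 0, against 53.5% of all tested genes. Signs of changes this small depend on scaling. With a common upper quartile the median of all tested genes moved from −0.0078 to 0.0605, and the signs of this list were not counted under it. Its most abundant genes, the phosphatase subunits PPP2CA and PPP2R1A, were at 49.4 ± 1.13 and 49.7 ± 0.899 FPKM and at 44.6 ± 1.17 and 45.1 ± 1.12 FPKM. Of other secreted or surface modulators, 9 of 23 were tested, 0 were higher and 1 was lower, SHISA2. SHISA2, of a family that holds Frizzled receptors in the endoplasmic reticulum, was at 6.498, 6.32 and 6.81 FPKM in the ADAMTS1 libraries, against 7.77, 7.49 and 7.16 FPKM in the vector libraries, with groups apart (limma adjusted p = 0.245). IGFBP4, a binding protein of insulin-like growth factors that also inhibits Frizzled and LRP6, was the most abundant, at 409 ± 11.8 and 416 ± 13.8 FPKM. It was followed by ATP6AP2, an adaptor between LRP6 and the proton pump, at 7.45 ± 0.221 and 7.69 ± 0.0968 FPKM.

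For planar polarity and the branches without beta-catenin, 32 of 38 genes were tested, with 1 higher and 3 lower and a median of −0.018. CAMK2D, a calcium-dependent kinase, was at 3.503, 3.32 and 3.32 FPKM in the ADAMTS1 libraries, against 2.84, 2.71 and 2.96 FPKM in the vector libraries. CELSR1, a planar polarity cadherin, was at 3.53, 3.44 and 3.68 FPKM in the ADAMTS1 libraries, against 4.79, 4.15 and 4.14 FPKM in the vector libraries. Both had groups apart, with limma adjusted p of 0.262 for CAMK2D and 0.244 for CELSR1. The kinase genes PRKCA, at 10.1 ± 0.685 and 11.5 ± 0.322 FPKM, and MAPK9, at 10.7 ± 0.291 and 11.6 ± 0.409 FPKM, were the other 2 that were lower. The most abundant were the GTPase genes RHOA, at 145 ± 2.13 and 141 ± 1.84 FPKM, and RAC1, at 118 ± 2.29 and 114 ± 7.01 FPKM.

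At cell junctions, where beta-catenin is held by cadherins, 3 of 11 listed genes were tested, with 0 higher and 2 lower. The cadherin CDH4 was at 19.6, 20.1 and 20.4 FPKM in the ADAMTS1 libraries, against 21.8, 21.9 and 21.8 FPKM in the vector libraries. CTNNA1, alpha-catenin, was at 64.7, 65.1 and 64.7 FPKM in the ADAMTS1 libraries, against 70.96, 67.98 and 69.2 FPKM in the vector libraries. Both had groups apart, with limma adjusted p of 0.209 for CDH4 and 0.238 for CTNNA1. JUP, a listed gene under the filter, went the other way. It was at 0.847, 0.742 and 0.693 FPKM in the ADAMTS1 libraries, against 0.419, 0.444 and 0.554 FPKM in the vector libraries. Its groups were apart, as were those of 6.12% of genes at 0.5 to 1 FPKM in that direction. CDH1, CDH2, CDH3 and CDH11 each averaged under 0.1 FPKM over the 6 libraries, and the highest value of a library was 0.111 FPKM, for CDH3.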

How the data were processed

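RNA of 6 MDA-MB-231 samples was sequenced. The authors deposited FPKM per gene and library; FastQC, HISAT2, StringTie and hg38 are named, without versions or roles, per the submitters' processing notes, while no source used here gives the annotation. FPKM is not a count, so no count test was used. The table had 32119 entries; where a symbol was repeated, its most abundant entry was used (284 dropped).

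The 11897 genes averaging 1 FPKM or more were tested with limma 3.58.1 (R 4.3.3; moderated with trend, two-sided) on log2(FPKM + 1), comparing 3 ADAMTS1 with 3 vector libraries at a threshold of 0.05. The script was tested on simulated data. Correlations between libraries were 0.9906 to 0.9929 within groups and 0.9886 to 0.9921 between them; relative depth came from the commonest ratio of low values. Members and lists were chosen with earlier results of these data known. Each member with an unadjusted p under 0.05 or with groups apart, and the 2 most abundant of each role, are given in every library. From each list, up to 6 genes with an unadjusted p under 0.05 and the 2 most abundant are named. L1CAM, JUP and FGF18 were added after their values were seen. Of 169 list entries 155 were matched. The 16 alternatives changed the pseudocount, filter, scaling, moderation, replicate block, repeated symbols or libraries. Summaries and figures used Python 3.11.15 and pandas 2.3.3.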

Additional observations from a re-analysis of the deposited data

How the results depend on the processing

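By limma, no member passed an adjusted p of 0.05 in the 16 alternatives (lowest limma adjusted p 0.128, for DKK1 with a filter of 5 FPKM). Members lower at an unadjusted p under 0.05 numbered 2, and 0 with a common upper quartile, 1 with the median of ratios and 1 without trend, but 3 with no filter or with a filter of 0.5 FPKM and a pseudocount of 0.1 (WNT7B added) and 3 with a filter of 5 FPKM (DVL1 added). With a library left out they numbered 0 to 2, with 0 without ADAMTS1 replicate 2 and 1 without ADAMTS1 replicate 1 or 3 or vector replicate 1. The median of −0.0064 was 0.0576 with a common upper quartile, where that of all genes was 0.0605, −0.0314 with a filter of 0.5 FPKM and a pseudocount of 0.1 (chosen after seeing the data), and −0.0256 to 0.0099 with a library left out. All genes called numbered 8, and 1 with no filter, 31 with a filter of 5 FPKM, 3 with a common sum, 2 without trend, 3 with a filter of 0.5 FPKM and a pseudocount of 0.1, and 1 to 5 with any library left out. Genes of the other lists that were called numbered 2 with a filter of 5 FPKM, SNAI2 and VEGFA (limma adjusted p = 0.0349 and 0.0345), against 0. The cause of these differences was not tested. Some settings also changed how many genes or libraries entered the fit.

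With the replicate number as a block, 1 gene was called over all genes and 0 members. Same-numbered libraries did not deviate together (correlations −0.0022, 0.0177 and −0.0934), and not every library correlated best with its own number. Such low correlations cannot exclude a small effect shared by libraries of the same number.

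Of the 28 members, 8 kept their sign in all alternatives that gave a value (DKK1, DVL1, FZD4, FZD5, FZD6, FZD7, GSK3B and ROR1); the 11 members under 5 FPKM had none with that filter. Changes that turned with a common upper quartile were CTNNB1 (0.0461), DVL3 (0.0486), DVL2 (0.0110), AXIN1 (0.0534), APC (0.0050), LEF1 (0.0191), FZD2 (0.0204), LRP6 (0.0289) and FZD1 (0.0253), and with a common sum ZNRF3 (−0.0024), TCF7L2 (−0.0023) and PORCN (−0.00016). With a library left out, changes ran over −0.0312 to 0.0111 for AXIN1, −0.0534 to 0.0187 for DVL3, −0.0805 to 0.0264 for FZD1, −0.0271 to 0.0615 for FZD8, −0.0192 to 0.0275 for GSK3A, −0.0621 to 0.0012 for LEF1, −0.0281 to 0.0964 for LGR4, −0.0082 to 0.0479 for LRP5, −0.111 to 0.0401 for LRP6, −0.0215 to 0.0323 for PORCN, −0.0324 to 0.0555 for TCF7L1, −0.0466 to 0.0529 for TCF7L2, −0.0226 to 0.0431 for WLS, −0.187 to 0.0072 for WNT10B, −0.0044 to 0.0934 for WNT5B and −0.016 to 0.0425 for ZNRF3. With no counts, how depth limits members under 1 FPKM is unknown.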

Other observations

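In 2 pairs of ligand genes that lie next to each other on opposite strands, 1 gene of each pair had a mean above 0.5 FPKM and the other was at or near 0. WNT10B and WNT1 lie 6586 bases apart on chromosome 12. WNT10B averaged 0.974 ± 0.317 FPKM in the ADAMTS1 libraries and 1.05 ± 0.201 FPKM in the vector libraries, while WNT1 was above 0 in ADAMTS1 replicate 3 only, at 0.0181 FPKM. WNT9A and WNT3A lie 59065 bases apart on chromosome 1. WNT9A averaged 0.589 ± 0.0319 FPKM in the ADAMTS1 libraries and 0.739 ± 0.1298 FPKM in the vector libraries, while WNT3A was above 0 in vector replicate 2 only, at 0.0357 FPKM.

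Several members at low levels overlap a more abundant gene on the opposite strand. DKK3 overlaps USP47 (4.36 and 4.44 FPKM), TCF7 overlaps SKP1 (14.3 and 14.5 FPKM), WNT2B overlaps ST7L (2.898 and 2.78 FPKM), and SFRP4 overlaps EPDR1 (27.8 and 26.4 FPKM; ADAMTS1 and vector libraries). The share of such reads in the low members was not tested.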
